A study of Mus musculus with 9 samples.

Results

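The genes described here encode 10 secreted signalling proteins: the interleukin-1 (IL-1) family cytokines Il1a, Il1b, Il18 and Il33, the IL-1 receptor antagonist Il1rn, the interleukin-6 (IL-6) family cytokines Il6, Il11, Lif and Osm, and Tslp, thymic stromal lymphopoietin. They were chosen by name for this family membership, and all 10 were found among the 24493 genes measured. The samples were pancreatic tumor cells of 1 mouse clone, 6419c5, of C57BL/6 origin, taken at a late stage from tumors that grew under the skin after implantation. Polyadenylated RNA was measured in 9 samples: 3 wild type (WT), 3 with a knockout labelled Usp22-KOA and 3 with a knockout labelled Usp22-KOB. Usp22 is a ubiquitin protease of the SAGA coactivator complex. All groups come from 1 clone, and the sources used here say neither what A and B stand for nor how tumor cells were parted from other cells. No label says that samples of a group came from separate mice, so p-values rest on a spread between samples that may be technical only.

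IL-1 family cytokines act through receptors that share the adaptor MyD88 and lead to NF-kB, a transcription factor of inflammation. IL-1 alpha is active as a precursor and is known as an alarm signal of damaged epithelium, while IL-1 beta and IL-18 are cut to their active forms by caspase-1. IL-33 is stored in nuclei and is read by the receptor ST2 on mast cells, regulatory T cells and innate lymphoid cells. IL-6 family cytokines share the receptor chain gp130 and signal through STAT3. In pancreatic tumors, IL-1 and LIF are known for their part in the exchange between tumor cells and fibroblasts, and oncostatin M, the product of Osm, is made mainly by myeloid cells and T cells.

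Il1a lies on chromosome 2 at 129299610 to 129309972 and Il1b at 129364570 to 129371139, both on the minus strand of GRCm38 (mm10), with 54.6 kb between them. Il1rn lies on the same chromosome at 24336853 to 24351494 (plus strand), 105 Mb from Il1a. Lif (chromosome 11, 4257557 to 4272514) and Osm (4236420 to 4241026), both on the plus strand, stand 16.5 kb apart. Il18 lies on chromosome 9 at 50554827 to 50581840, Il33 on chromosome 19 at 29925114 to 29960718 and Il6 on chromosome 5 at 30013114 to 30019981, all on the plus strand. Il11 lies on chromosome 7 at 4772373 to 4782859 (minus strand). These positions span whole protein-coding genes, introns and untranslated regions included.

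The 250 bases before the first RefSeq start site are shown for the 5 IL-1 family members, so that Il1a, Il1rn, Il18 and Il33, which were lower in Usp22-KOA, can be read beside Il1b, which was called in no comparison. They come from the RefSeq promoter table of GRCm38.p6, read 5′ to 3′ on the gene's strand. Capitals mark exact matches, on either strand, to the motifs searched. The AP-1 motif was searched as TGACTCA and as its reverse complement TGAGTCA, which mark the same sites. The TATA box was searched as TATAAA and the STAT motif as TTCNNNGAA. The NF-kB motif was searched in a pair of forms, a run of 3 G that stands 2 bases before TTTCC and the same run before the letters TTCCC.
Il1a (chr2:129309973-129310222, minus strand): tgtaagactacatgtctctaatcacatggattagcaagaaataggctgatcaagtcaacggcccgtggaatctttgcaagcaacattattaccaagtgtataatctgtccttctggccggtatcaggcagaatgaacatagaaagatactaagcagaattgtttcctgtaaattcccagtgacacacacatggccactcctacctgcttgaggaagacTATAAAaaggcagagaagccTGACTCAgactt
Il1b (chr2:129371140-129371389, minus strand): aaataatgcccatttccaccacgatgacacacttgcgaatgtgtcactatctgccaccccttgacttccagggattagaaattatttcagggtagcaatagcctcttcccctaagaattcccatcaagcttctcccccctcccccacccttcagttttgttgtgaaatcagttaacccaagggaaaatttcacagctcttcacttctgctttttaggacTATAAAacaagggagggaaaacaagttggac
Il1rn (chr2:24336610-24336859, plus strand): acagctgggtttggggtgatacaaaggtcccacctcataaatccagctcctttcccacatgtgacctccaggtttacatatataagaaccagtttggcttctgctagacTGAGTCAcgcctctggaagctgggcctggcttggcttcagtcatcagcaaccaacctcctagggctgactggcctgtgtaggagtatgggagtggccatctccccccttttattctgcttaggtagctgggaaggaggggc
Il18 (chr9:50554450-50554699, plus strand): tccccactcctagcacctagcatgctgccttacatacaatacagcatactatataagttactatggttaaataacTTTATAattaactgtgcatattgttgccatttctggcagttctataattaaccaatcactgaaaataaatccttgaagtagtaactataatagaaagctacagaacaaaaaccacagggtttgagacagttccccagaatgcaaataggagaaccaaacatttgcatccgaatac
Il33 (chr19:29924863-29925112, plus strand): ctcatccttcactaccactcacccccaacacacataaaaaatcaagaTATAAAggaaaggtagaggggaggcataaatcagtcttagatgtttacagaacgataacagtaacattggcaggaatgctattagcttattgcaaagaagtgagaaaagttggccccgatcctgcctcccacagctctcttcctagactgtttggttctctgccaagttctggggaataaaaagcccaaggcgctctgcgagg

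Il1a and Il1b both carried TATAAA close to the start site, 32 to 27 bases upstream in Il1a and 31 to 26 bases upstream in Il1b. Il1a also held TGACTCA at 12 to 6 bases upstream, and the first Il1rn window held TGAGTCA at 141 to 135. In Il18 the TATAAA match was on the opposite strand, 175 to 170 bases upstream, and in the first Il33 window it was at 203 to 198. The second Il33 window, whose sequence is not shown, held TATAAA at 29 to 24 bases upstream of its start site. RefSeq gave 12 such windows for 8 of the 10 genes; Osm and Tslp had no entry. AP-1 letters were in 5 of the 12 windows (Il1a, Il1rn, Il6, Lif and Il11), against 4.46% of all 32851 windows, and TATAAA was in 5 (Il1a, Il1b, Il18 and both of Il33), against 12.4%. The NF-kB form with TTTCC was in 2 windows, 1 of Il6 and the third of Il1rn, against 1.41% of all windows. The form with TTCCC and the STAT motif were in 0 of the 12, against 1.53% and 7.02%. These are matches of letters in a short stretch, and windows of 1 gene can overlap.

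Values were in TPM, a transcript abundance scaled to the same total in each library and corrected for length, so that levels of different genes can be set side by side. A library held 13037 to 13940 genes at 1 TPM or more. TPM keeps no read depth, so precision rests on the spread between samples. Differences are of log2(TPM + 1) ± SE from limma, fitted on the 13843 genes that averaged 1 TPM or more, and calls had a Benjamini-Hochberg adjusted p under 0.05. Changes of low genes are understated on this scale. The targeted gene Usp22 averaged 55.3 ± 0.977 TPM in WT (SD, n = 3), and the knockouts held 9.44 ± 0.867 (KOA) and 13.6 ± 1.62 TPM (KOB). The samples held RNA of both tumor cells and leukocytes: the keratin gene Krt8 stood at 2355 to 3001 TPM over the 9 samples, and the leukocyte gene Ptprc (CD45) at 10.96 to 44.3 TPM. In bulk RNA, fewer cells of a type and less RNA per cell cannot be told apart.

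Il1rn, Il18 and Il33 were lower than WT in both knockouts, Il1a was lower in Usp22-KOA alone, and Osm was higher in both. Il6 was higher than WT in Usp22-KOB, and Il1b, Lif and Tslp did not pass the test against WT in either knockout. Il11 lay below the level needed for the fit. For the mean of both knockouts against WT, limma called 5 of the 9 tested members, 1 higher and 4 lower, where 50.0% of all tested genes were called (25.9% higher and 24.1% lower). In Usp22-KOA 5 of 9 were called, 1 higher and 4 lower, against 56.3% of all genes (29.4% higher and 26.9% lower). In Usp22-KOB 5 of 9 were called, 2 higher and 3 lower, against 37.1% of all genes (18.7% and 18.4%). The share of members called was therefore near that of all genes in the first 2 comparisons. The median difference of the members was -0.17 (Usp22-KOA) and -0.20 (Usp22-KOB), against 0.019 and -0.0075 over all tested genes. All samples of Usp22-KOA lay above WT for 1 member and below for 4, as they did for 34.2% and 31.1% of all genes. Those of Usp22-KOB lay above for 3 and below for 3, against 25.0% and 24.0%. Both comparisons use the same 3 WT samples.

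**Figure D1:**
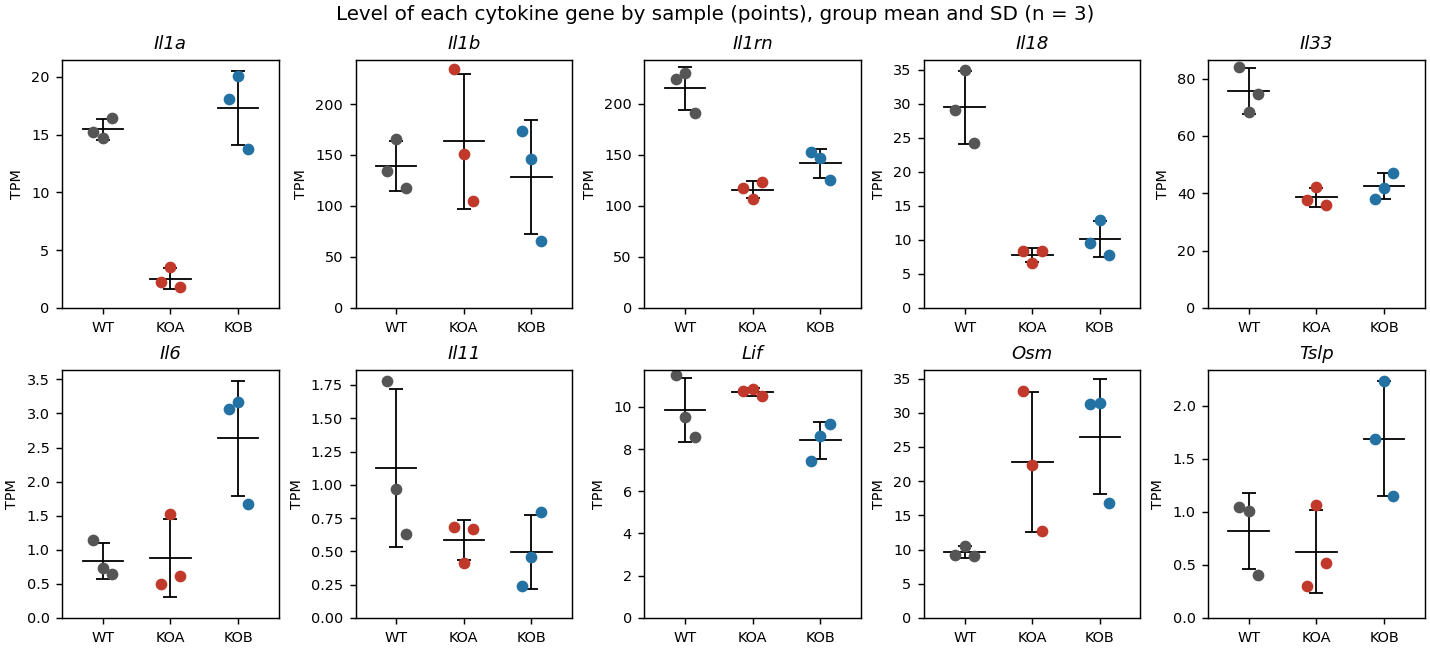
TPM (y axis, linear and starting at 0, a scale of its own in each panel) of the 10 cytokine genes in WT, Usp22-KOA (KOA) and Usp22-KOB (KOB). Each point is 1 sample, replicates 1 to 3 from left to right, with the group mean and SD (n = 3); Il1rn, Il18 and Il33 are lowest in the 6 knockout points, Osm is highest in them, and Il1a is low in Usp22-KOA alone.

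Il1b was the most abundant of the 4 IL-1 family agonists. It stood at 134, 166 and 117 TPM (WT samples), 235, 151 and 104 TPM (Usp22-KOA samples) and 173, 146 and 65.3 TPM (Usp22-KOB samples). The 3 groups overlapped, and replicate 3 was the lowest sample of each. The log2 difference from WT was 0.16 ± 0.38 in Usp22-KOA (limma, adjusted p = 0.733) and -0.22 ± 0.38 in Usp22-KOB (adjusted p = 0.683). Neither direction held when single libraries were left out. The spread within the knockouts, an SD of 66.0 and 56.1 TPM around means of 163 and 128, leaves differences of this size undetectable here. Il1bos, annotated on its opposite strand, stood at 3.05, 1.91 and 1.84 TPM in the 3 groups.

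Il1a, its neighbour on chromosome 2, differed between the knockouts. It measured 15.2, 14.7 and 16.5 TPM in the WT samples, 2.23, 3.56 and 1.82 TPM in the Usp22-KOA samples and 18.1, 20.0 and 13.7 TPM in the Usp22-KOB samples. The Usp22-KOA samples were all below the other 6, while Usp22-KOB overlapped WT. Usp22-KOA thus held 16.4% of the WT mean, a log2 difference of -2.25 ± 0.19 (limma, adjusted p = 1.1e-05), and Usp22-KOB held 112%, a difference of 0.14 ± 0.19 (adjusted p = 0.599). The knockouts differed from each other by -2.38 ± 0.19 (adjusted p = 1.4e-05). The call for the mean of both knockouts, -1.05 ± 0.16 (adjusted p = 6.7e-04), rests on Usp22-KOA, and it ended when the 6 knockout samples were treated as 1 group (adjusted p = 0.307). A pseudocount of 5 TPM reduced the Usp22-KOA difference to -1.45, still called. The annotation places Gm14023 on the opposite strand of Il1a, at 2.84, 2.23 and 2.48 TPM in the 3 groups, so the low Usp22-KOA values of Il1a are near the level of that gene; use of strand in the quantification was not stated in the sources at hand.

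Il18, whose product is known for raising interferon gamma in T and NK cells, had the largest fall of the members called in both knockouts. It stood at 29.1, 35.0 and 24.3 TPM (WT samples), 8.39, 6.58 and 8.34 TPM (Usp22-KOA samples) and 9.54, 13.0 and 7.85 TPM (Usp22-KOB samples). No knockout sample reached the lowest WT sample. The means were 26.4% and 34.3% of WT, with log2 differences of -1.79 ± 0.19 (limma, adjusted p = 4.3e-05) and -1.47 ± 0.19 (adjusted p = 4.7e-04). Usp22-KOA and Usp22-KOB differed by -0.32 ± 0.19, which did not pass (adjusted p = 0.175). Il18 overlaps Bco2, a carotenoid oxygenase gene on the opposite strand, and with use of strand not stated, reads of the pair may not be told apart. Bco2 moved the same way, from 14.1 ± 0.711 TPM (WT) to 5.03 ± 1.12 and 3.84 ± 0.621 TPM (limma, adjusted p = 6.4e-05 and 6.7e-05).

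Il33 measured 83.99, 68.2 and 74.6 TPM in the WT samples, 37.6, 42.3 and 35.8 TPM in the Usp22-KOA samples and 38.1, 41.8 and 47.1 TPM in the Usp22-KOB samples. Its knockout samples all lay below its WT samples and overlapped each other. The means were 51.0% and 56.0% of WT, with log2 differences of -0.95 ± 0.10 (limma, adjusted p = 5.8e-05) and -0.82 ± 0.10 (adjusted p = 4.6e-04), and the knockouts differed by -0.13 ± 0.10 (adjusted p = 0.328).

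Il1rn, whose protein occupies the IL-1 receptor without signalling, was the most abundant of the 10 genes in WT. It stood at 224, 230 and 191 TPM (WT samples), 117, 107 and 124 TPM (Usp22-KOA samples) and 152, 147 and 125 TPM (Usp22-KOB samples). All 6 knockout samples were below WT, at 53.9% and 65.8% of the WT mean. The log2 differences were -0.88 ± 0.10 (limma, adjusted p = 6.2e-05) and -0.60 ± 0.10 (adjusted p = 0.00165). Usp22-KOA lay below Usp22-KOB by -0.28 ± 0.10 (adjusted p = 0.0357), a call that ended when replicate 1 or 2 of either knockout was left out, with no filter on low genes (0.051) and without limma's trend (0.055).

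Il1rn was also set against the agonists within each sample. The ratio of Il1rn to the sum of Il1a and Il1b was 1.499, 1.27 and 1.42 in the WT samples, 0.497, 0.693 and 1.16 in the Usp22-KOA samples and 0.797, 0.885 and 1.58 in the Usp22-KOB samples. Replicate 3 of Usp22-KOB lay above all WT samples, and the other 5 knockout samples lay below them. The log2 ratio differed by -0.67 between the 6 knockout and 3 WT samples (exact two-sided permutation test, p = 0.107, 0.143 after Benjamini-Hochberg adjustment over the 4 ratios computed). The leave-outs of 1 sample gave -0.84 to -0.51; the adjusted p was 0.167 to 0.333 in 8 of them and 0.0476 without replicate 3 of Usp22-KOB, the sample above WT.

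Among the IL-6 family, Osm rose. It stood at 9.16, 10.6 and 8.99 TPM (WT samples), 33.2, 22.4 and 12.8 TPM (Usp22-KOA samples) and 31.2, 31.5 and 16.8 TPM (Usp22-KOB samples). All 6 knockout samples were above WT, and replicate 3 was the lowest of each knockout. The means were 238% and 277% of WT, with log2 differences of 1.08 ± 0.33 (limma, adjusted p = 0.0198) and 1.33 ± 0.33 (adjusted p = 0.0125). The Usp22-KOA call ended without replicate 1 or 3 of WT or replicate 1 or 2 of Usp22-KOA (adjusted p 0.054 to 0.064), whereas the call for both knockouts, 1.20 ± 0.28 (adjusted p = 0.00699), held in each of the 9 leave-outs (adjusted p up to 0.0298). The knockouts did not differ by the test (-0.25 ± 0.33, adjusted p = 0.548).

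Lif, 16.5 kb from Osm, was called in neither comparison with WT. It measured 11.5, 9.50 and 8.56 TPM in the WT samples, 10.7, 10.9 and 10.5 TPM in the Usp22-KOA samples and 7.42, 8.64 and 9.16 TPM in the Usp22-KOB samples. Both knockouts overlapped WT, with log2 differences of 0.12 ± 0.11 (limma, adjusted p = 0.413) and -0.20 ± 0.11 (adjusted p = 0.198). The 3 Usp22-KOA samples lay above the 3 Usp22-KOB samples by 0.32 ± 0.11 (adjusted p = 0.0425). That call ended with no filter on low genes (adjusted p = 0.068) and without replicate 2 of WT, any 1 of the Usp22-KOA samples, or replicate 1 or 2 of Usp22-KOB (up to 0.136).

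Il6 was a low gene here. It stood at 1.14, 0.729 and 0.639 TPM (WT samples), 0.492, 1.53 and 0.620 TPM (Usp22-KOA samples) and 3.07, 3.17 and 1.66 TPM (Usp22-KOB samples). The Usp22-KOB samples all lay above the other 6, at 315% of the WT mean, and the other groups overlapped. The log2 difference was 0.97 ± 0.26 in Usp22-KOB (limma, adjusted p = 0.0179) and 0.00 ± 0.26 in Usp22-KOA (adjusted p = 0.992), and the knockouts differed by -0.96 ± 0.26 (adjusted p = 0.0127). The Usp22-KOB call ended without replicate 2 or 3 of WT or replicate 1 or 2 of Usp22-KOB (adjusted p 0.053 to 0.069), and the call between the knockouts without replicate 2 of Usp22-KOB (0.051) or with quantile normalization (0.057). The size depends on the pseudocount, from 1.53 with 0.1 TPM to 0.38 with 5 TPM.

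Il11 had a mean under 1 TPM and was not in the fit. It measured 1.78, 0.969 and 0.628 TPM in the WT samples, 0.682, 0.414 and 0.665 TPM in the Usp22-KOA samples and 0.240, 0.456 and 0.793 TPM in the Usp22-KOB samples. The knockout samples differed from WT by -0.44 on the log2 scale, with overlap (exact two-sided permutation test over 84 splits, p = 0.0595). The value rests on single WT samples: it was -0.23 without replicate 1 of WT (exact p = 0.214) and -0.61 without replicate 3 of WT (exact p = 0.0357).

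Tslp, an epithelial cytokine that acts on dendritic cells and other leukocytes, was equally low. Its gene lies on chromosome 18 at 32815383 to 32819797 (plus strand). It stood at 1.04, 1.01 and 0.402 TPM (WT samples), 0.298, 1.06 and 0.520 TPM (Usp22-KOA samples) and 1.68, 2.23 and 1.15 TPM (Usp22-KOB samples). All Usp22-KOB samples were above the others, yet the log2 difference from WT, 0.57 ± 0.25, missed the threshold (limma, adjusted p = 0.107), and that of Usp22-KOA was -0.17 ± 0.25 (adjusted p = 0.591). Usp22-KOA lay below Usp22-KOB by -0.73 ± 0.25 (adjusted p = 0.035), a call that ended without replicate 1 or 3 of Usp22-KOA and with quantile normalization (-0.40, adjusted p = 0.199). Between the knockouts, limma called 5 of the 9 tested members (Il1a, Il1rn, Il6 and Tslp lower in Usp22-KOA, Lif higher), where 51.7% of all genes were called (27.5% higher and 24.2% lower). The groups did not overlap for any of these 5, where 31.3% of all genes lay higher and 27.1% lower in Usp22-KOA without overlap. The Il1a call held in every alternative run, and each of the other 4 ended in at least 1. Both of the lowest genes tested, Il6 and Tslp, stood highest in Usp22-KOB.

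**Figure D2:**
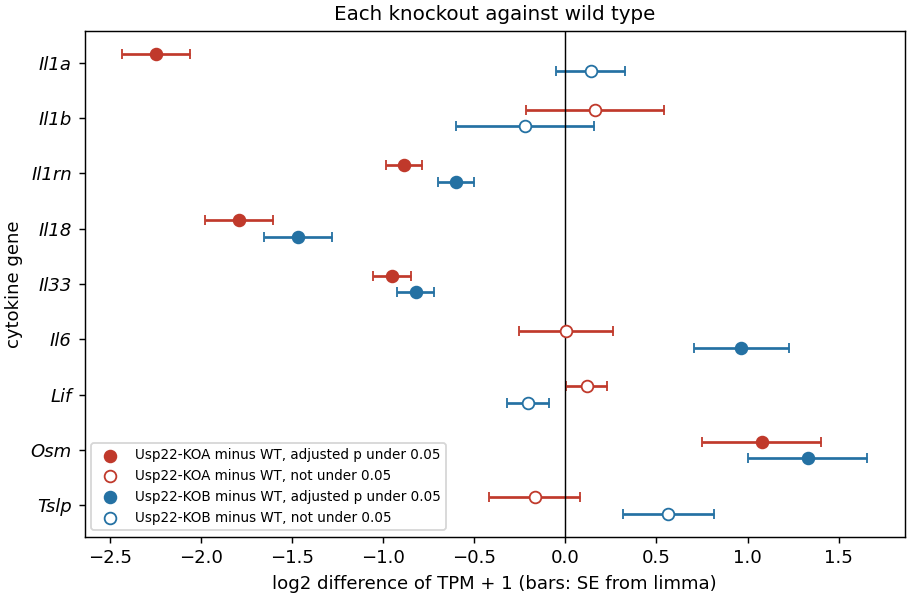
Difference of each knockout from WT in log2(TPM + 1) (x axis) for the 9 tested cytokine genes, with bars for the SE from limma; filled points have an adjusted p under 0.05. Il1rn, Il18 and Il33 lie left of 0 and Osm right of 0 in both knockouts, while Il1a lies at -2.25 in Usp22-KOA and 0.14 in Usp22-KOB.

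By summed levels, the 4 IL-1 agonists gave 259.8 ± 25.7 (WT), 212 ± 66.7 (Usp22-KOA) and 198 ± 56.0 TPM (Usp22-KOB; SD, n = 3). Il1b made up 53.6% of the WT sum, 77.0% of the Usp22-KOA sum and 64.7% of the Usp22-KOB sum. The 4 IL-6 family genes summed to 21.4 ± 2.42, 35.0 ± 10.3 and 38.0 ± 8.39 TPM. Lif and Osm held near equal shares of that sum in WT, 46.1% and 44.7%, while Osm held 65.2% in Usp22-KOA and 69.7% in Usp22-KOB. In WT the order of levels was Il1rn, Il1b, Il33, Il18, Il1a, Lif, Osm, Il11, Il6 and Tslp; Lif and Osm overlapped, as did Il11, Il6 and Tslp, and no other neighbours did.

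The receptors of these cytokines were read next, from lists of pathway genes. Of 9 IL-1 family receptors and binding proteins, limma called 2 higher and 3 lower in Usp22-KOA, and 6 higher and 1 lower in Usp22-KOB. For Usp22-KOA, 29.4% of all tested genes were called higher and 26.9% lower, and these counts lay near those shares. The shares for Usp22-KOB were 18.7% higher and 18.4% lower, so its 6 higher genes of 9 lay above the share. Some of those calls ended in leave-outs, as given below. Il18r1, the chain that binds IL-18, stood at 19.3 to 26.2 TPM in the WT samples and 2.01 to 2.41 TPM in those of Usp22-KOA, 9.34% of the WT mean (log2 difference -2.92 ± 0.14, adjusted p = 5.1e-07). In Usp22-KOB it stood at 13.1 to 18.1 TPM (-0.57 ± 0.14, adjusted p = 0.0132; 0.051 without replicate 2 of WT and 0.054 without replicate 2 of Usp22-KOB). Its signalling partner Il18rap was lower in Usp22-KOA (-0.86 ± 0.21, adjusted p = 0.0068), and in Usp22-KOB it differed by 0.71 ± 0.21 (adjusted p = 0.0283, and over 0.05 without replicate 3 of WT or any 1 of the Usp22-KOB samples). Il18bp, the secreted protein that neutralises IL-18 and is known to follow interferon gamma, rose from 7.99 ± 2.16 TPM to 30.8 ± 1.34 and 19.8 ± 3.03 TPM (adjusted p = 1.9e-05 and 7.0e-04).

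Il18bp and its target thus moved in opposite directions. The ratio of Il18bp to Il18 was 0.286, 0.314 and 0.278 in the WT samples, 3.23, 4.22 and 3.54 in the Usp22-KOA samples and 2.22, 1.55 and 1.98 in the Usp22-KOB samples. Every knockout sample held more Il18bp than Il18, and every WT sample held less. The log2 ratio was 3.17 higher in the knockouts (exact two-sided permutation test over 84 splits, p = 0.0119, the smallest possible). After adjustment over 4 ratios this p was 0.0476. Il18bp lay above WT and Il18 below WT in every knockout sample, so the ratio had to separate the groups. The test adds no support beyond the values of each gene, and it pools samples of both knockouts. Leave-outs of 1 sample gave 3.03 to 3.32; the adjusted p was 0.0476 without replicate 3 of Usp22-KOB and 0.0714 without any other 1 of the samples.

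Il1rl1 encodes ST2, the receptor of IL-33, in both its membrane and its soluble decoy form. It stood at 1.65, 1.67 and 1.03 TPM (WT samples), 19.7, 15.6 and 10.2 TPM (Usp22-KOA samples) and 3.75, 3.19 and 2.73 TPM (Usp22-KOB samples). The groups did not overlap. The log2 difference was 2.69 ± 0.22 in Usp22-KOA (limma, adjusted p = 1.1e-05) and 0.79 ± 0.22 in Usp22-KOB (adjusted p = 0.0224; over 0.05 without replicate 3 of WT or replicate 1 or 2 of Usp22-KOB, up to 0.0762). With a pseudocount of 5 TPM these differences were 1.62 and 0.35, and the Usp22-KOB call ended (adjusted p = 0.104). Summed markers of mast cells, which carry ST2, lay at 152 to 186 (WT), 1224 to 2540 (Usp22-KOA) and 97.8 to 132 TPM (Usp22-KOB). Mcpt4, a mast cell protease singled out after its values were seen, held 94.5% of the WT sum and 48.9% of the Usp22-KOB sum. The other 9 markers summed to 6.48 to 12.4 (WT), 894 to 1875 (Usp22-KOA) and 41.9 to 75.0 TPM (Usp22-KOB), so without Mcpt4 the Usp22-KOB samples lay above WT. By limma 10 of the 10 mast cell markers were higher in Usp22-KOA, and in Usp22-KOB 5 were higher and 1 lower. Among all genes, 29.4% were higher in Usp22-KOA, and 18.7% were higher and 18.4% lower in Usp22-KOB. The part of mast cells in the Il1rl1 result was not tested. The log2 ratio of Il1rl1 to Il33 was higher by 2.63 in the 6 knockout samples (exact two-sided permutation test, p = 0.0238, 0.0476 adjusted). It was 2.34 to 2.89 in the leave-outs, with the same adjusted p as for the Il18bp ratio in each. Every knockout sample lay above WT for Il1rl1 and below WT for Il33, so this ratio also had to separate the groups. Its test adds no support beyond the values of each gene.

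Il1r1, the signalling receptor of both IL-1 alpha and IL-1 beta, was lowest in Usp22-KOA, as Il1a was. It stood at 13.3 ± 0.477 (WT), 8.86 ± 0.816 (Usp22-KOA) and 17.3 ± 2.25 TPM (Usp22-KOB), without overlap. It was lower in Usp22-KOA, with a log2 difference of -0.54 ± 0.10 (limma, adjusted p = 0.0018), and the difference of 0.35 ± 0.10 in Usp22-KOB (adjusted p = 0.0258) did not hold without any 1 of the WT samples or replicate 2 or 3 of Usp22-KOB (up to 0.0754). Its coreceptor Il1rap stood at 4.13, 2.91 and 3.35 TPM and was not called. The decoy receptor Il1r2 stood at 28.5 ± 3.02, 28.3 ± 12.5 and 12.6 ± 7.03 TPM, with a difference of -1.30 ± 0.45 in Usp22-KOB at the edge of the threshold (adjusted p = 0.0504). The ratio of Il1r2 to Il1r1 was 1.97, 2.35 and 1.89 in the WT samples, 4.36, 2.53 and 2.003 in the Usp22-KOA samples and 1.10, 0.965 and 0.262 in the Usp22-KOB samples. All Usp22-KOB samples lay below WT, with a log2 difference of -1.66, while Usp22-KOA differed from WT by 0.45 and overlapped it (exact permutation tests, p = 0.1, the smallest that 3 against 3 allows, and 0.2). The pooled value of -0.60 for both knockouts (exact permutation p = 0.583) averages these opposite signs. Sigirr, a brake on IL-1 family receptors, was higher in Usp22-KOB, at 46.4 ± 4.41 against 23.1 ± 4.15 TPM in WT (adjusted p = 9.4e-04).

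**Figure D3:**
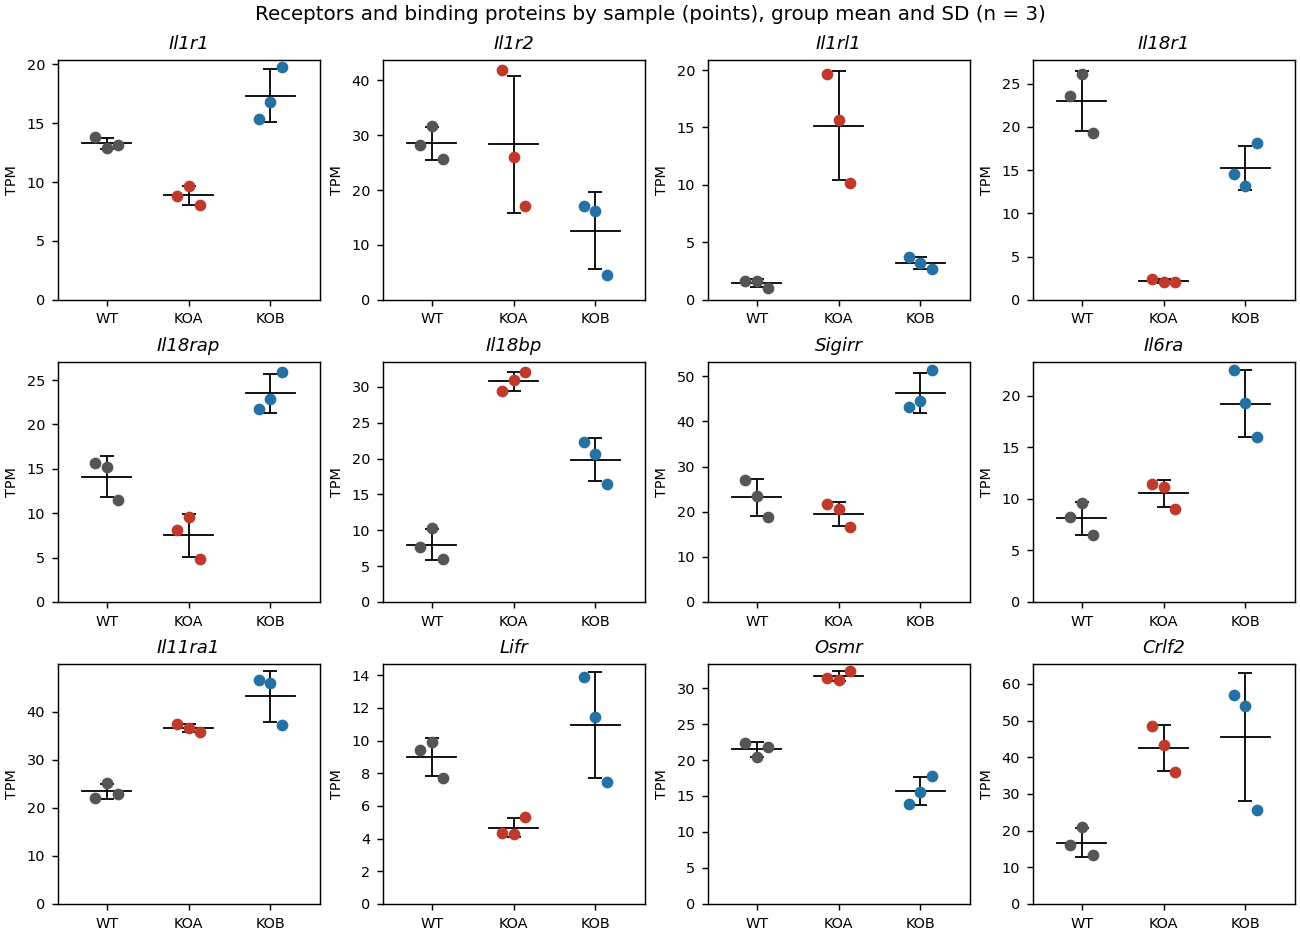
TPM (y axis, linear and starting at 0, a scale of its own in each panel) of 12 receptor and binding protein genes in WT, Usp22-KOA (KOA) and Usp22-KOB (KOB), with 1 point per sample and the group mean and SD (n = 3). Il18r1 is lowest in Usp22-KOA (2.01 to 2.41 TPM), Il1rl1 and Osmr are highest there, Il6ra and Sigirr are highest in Usp22-KOB, and Il18bp, Il11ra1 and Crlf2 are higher than WT in all 6 knockout samples.

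On the IL-6 side, the shared chain gp130 (Il6st) stood at 26.8, 26.7 and 27.5 TPM and was not called. Of the 6 tested IL-6 family receptors, limma called 2 higher and 1 lower in each knockout against WT, and between the knockouts 1 higher and 2 lower in Usp22-KOA. The shares of all genes called higher and lower were 29.4% and 26.9% (Usp22-KOA) and 18.7% and 18.4% (Usp22-KOB). Between the knockouts they were 27.5% and 24.2%. Osmr, the receptor of oncostatin M, rose from 21.5 ± 1.02 TPM to 31.7 ± 0.643 TPM in Usp22-KOA (0.54 ± 0.09, adjusted p = 6.5e-04) and fell to 15.7 ± 1.94 TPM in Usp22-KOB (-0.43 ± 0.09, adjusted p = 0.0048). The difference between the knockouts was 0.97 ± 0.09 (adjusted p = 2.8e-05), though Osm was higher than WT in both. Lifr, the receptor of LIF, fell in Usp22-KOA from 9.02 ± 1.16 to 4.66 ± 0.585 TPM (adjusted p = 0.0060). Il6ra, the IL-6 binding chain, rose in Usp22-KOB from 8.10 ± 1.58 to 19.2 ± 3.21 TPM (adjusted p = 7.8e-04), the knockout in which Il6 was also highest. Il11ra1 rose in both, from 23.4 ± 1.61 to 36.6 ± 0.789 and 43.2 ± 5.30 TPM (adjusted p = 3.7e-04 and 1.9e-04), although a near-identical copy of this gene makes its reads uncertain.

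The other ligands of the IL-6 family that limma called were lower. Of 6 tested, 4 were lower and 0 higher in Usp22-KOA, and 3 were lower and 0 higher in Usp22-KOB. The share of all tested genes called lower was 26.9% for Usp22-KOA. For Usp22-KOB it was 18.4%. Ctf1 (cardiotrophin 1, which has a close relative in mouse) stood at 3.63 to 5.08 (WT), 0.154 to 0.166 (Usp22-KOA) and 1.02 to 2.01 TPM (Usp22-KOB) (limma, adjusted p = 1.7e-05 and 0.0023). Clcf1, a cytokine that signals through the CNTF receptor, fell from 46.2 ± 5.58 to 23.0 ± 2.50 TPM in Usp22-KOA (adjusted p = 9.5e-05). The other IL-1 family ligands were listed as 9 symbols, which included both older and newer names of the same genes. Of the 5 symbols found in the data, Il1f9 (IL-36 gamma) was the 1 gene tested. It stood at 1.78 ± 0.446 TPM in WT and rose to 6.68 ± 2.17 TPM in Usp22-KOA (adjusted p = 0.0121).

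The receptor of TSLP pairs Crlf2 with Il7r. Crlf2 measured 16.0, 20.9 and 13.2 TPM in the WT samples, 48.4, 43.3 and 35.9 TPM in the Usp22-KOA samples and 56.9, 54.1 and 25.6 TPM in the Usp22-KOB samples, above WT in all 6. Its log2 differences were 1.31 ± 0.29 (limma, adjusted p = 0.0039) and 1.33 ± 0.29 (adjusted p = 0.0067). Il7r was higher in Usp22-KOB, at 7.65 ± 2.11 against 1.83 ± 0.48 TPM (adjusted p = 0.0037). Of the 4 genes of this list, 2 were higher in Usp22-KOA and 3 in Usp22-KOB, and 0 were lower. Of all tested genes, 29.4% were higher in Usp22-KOA and 18.7% in Usp22-KOB. Pan-leukocyte markers, given below, were also higher, 3 of 10 in Usp22-KOA and 8 of 10 in Usp22-KOB. The part of leukocytes in this list was not tested.

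Of 9 genes that process and release IL-1 beta and IL-18, limma called 4 higher and 2 lower in Usp22-KOA, where 29.4% of all genes were higher and 26.9% lower, and 3 higher and 1 lower in Usp22-KOB, where 18.7% were higher and 18.4% lower. Casp1, which cuts both cytokines, stood at 22.9 ± 7.79 (WT), 161 ± 23.1 (Usp22-KOA) and 54.7 ± 3.68 TPM (Usp22-KOB) (log2 differences 2.80 ± 0.21 and 1.27 ± 0.21, adjusted p = 5.8e-06 and 0.0018). Casp4, which opens the pore protein gasdermin D, rose in Usp22-KOA from 40.3 ± 2.47 to 127 ± 9.23 TPM, and Aim2, a sensor of DNA, from 9.001 ± 2.66 to 30.8 ± 1.40 TPM (adjusted p = 1.1e-06 and 2.5e-05). The transcript of the enzyme thus rose while that of its substrate Il18 fell.

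Signalling genes downstream of the receptors went both ways. Of 10 IL-1 receptor signalling genes, 3 were higher and 4 lower in Usp22-KOA, and 3 higher and 2 lower in Usp22-KOB. The adaptor Myd88 rose in both, from 31.7 ± 2.71 to 51.0 ± 4.38 and 44.9 ± 6.61 TPM (limma, adjusted p = 9.1e-04 and 0.010). Of 13 JAK-STAT transducers and brakes, 7 were higher and 3 lower in Usp22-KOA, and 5 higher and 1 lower in Usp22-KOB. Beside both lists, 29.4% of all tested genes were higher and 26.9% lower in Usp22-KOA. In Usp22-KOB the shares were 18.7% and 18.4%. Socs1 and Socs2, which encode feedback brakes of cytokine receptors, moved in opposite directions. Socs1 rose from 15.3 ± 0.941 to 34.4 ± 7.94 and 31.9 ± 2.26 TPM (adjusted p = 2.6e-04 and 0.0011), and Socs2 fell from 135 ± 13.0 to 62.1 ± 8.80 and 65.8 ± 13.4 TPM (adjusted p = 1.9e-04 and 8.1e-04). Stat3 rose in Usp22-KOA from 75.0 ± 1.86 to 117 ± 2.69 TPM (adjusted p = 4.0e-06).

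Genes known to respond to these cytokines showed no single direction. Of 17 tested gp130-STAT3 response genes, 7 were higher and 4 lower in Usp22-KOA, and 6 higher and 4 lower in Usp22-KOB, with medians of 0.24 and 0.16. Lbp, a binding protein for bacterial lipopolysaccharide made in the acute phase, rose from 118 ± 4.17 to 340 ± 19.4 and 218 ± 24.5 TPM, whereas Steap4, a metalloreductase, fell from 26.9 ± 3.24 to 10.5 ± 1.01 and 5.90 ± 0.314 TPM (limma, adjusted p up to 7.7e-05 for these 4 differences). Of 18 IL-1-NF-kB response genes, 5 were higher and 2 lower in Usp22-KOA, and 4 higher and 4 lower in Usp22-KOB, with medians of 0.01 and 0.16. Over all tested genes, 29.4% were higher and 26.9% lower in Usp22-KOA, with a median of 0.019. The same values for Usp22-KOB were 18.7%, 18.4% and -0.0075. Lcn2 (lipocalin 2), which stands in both lists, rose from 189 ± 15.6 to 425 ± 49.2 TPM in Usp22-KOA and fell to 51.2 ± 7.32 TPM in Usp22-KOB (1.16 ± 0.12 and -1.87 ± 0.12, adjusted p = 3.7e-05 and 8.9e-06). Cxcl5, a neutrophil chemokine, fell from 407 ± 30.6 to 114 ± 16.1 TPM in Usp22-KOB (adjusted p = 1.2e-05) and stood at 352 ± 48.8 TPM in Usp22-KOA. Csf3, which encodes the growth factor G-CSF, fell from 2.94 ± 1.30 to 0.181 ± 0.113 and 0.892 ± 0.335 TPM (adjusted p = 3.5e-04 and 0.011).

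Osm and Il1b are made largely by leukocytes in many tissues, and Il6 by leukocytes among other cells, so leukocyte markers were set beside them. Fibroblast markers, given further below, summed to 582 to 1043 (WT), 253 to 321 (Usp22-KOA) and 912 to 1384 TPM (Usp22-KOB). The 10 pan-leukocyte markers summed to 336 to 599 (WT), 480 to 968 (Usp22-KOA) and 825 to 1723 TPM (Usp22-KOB), with 3 of 10 higher by limma in Usp22-KOA and 8 of 10 in Usp22-KOB. The 15 macrophage and monocyte markers summed to 2209 to 3352, 1626 to 3538 and 5736 to 10021 TPM, with 1 higher and 1 lower in Usp22-KOA and 14 higher in Usp22-KOB. The 12 neutrophil markers summed to 652 to 702, 605 to 1539 and 158 to 518 TPM. Of 8 tested, 1 was higher in Usp22-KOA, and 2 were higher and 1 lower in Usp22-KOB. S100a8 alone held 52.4%, 55.6% and 38.6% of these sums. Without S100a8, taken out after the values were seen, the sums were 312 to 347, 288 to 674 and 110 to 313 TPM. Retnlg went the other way in Usp22-KOB (51.2 to 144 TPM, 12.0 to 29.6 in WT), as did Mmp8 (4.61 to 5.48 TPM, 1.31 to 1.93 in WT). No marker of these lists was at 0 in every library. For Usp22-KOA, 29.4% of all tested genes were called higher and 26.9% lower. The shares for Usp22-KOB were 18.7% higher and 18.4% lower. The part of these cells in the Osm, Il1b and Il6 results was not tested. Within each knockout, replicate 3 was lowest in Osm, Il1b and the pan-leukocyte, macrophage and neutrophil marker sums.

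**Figure D4:**
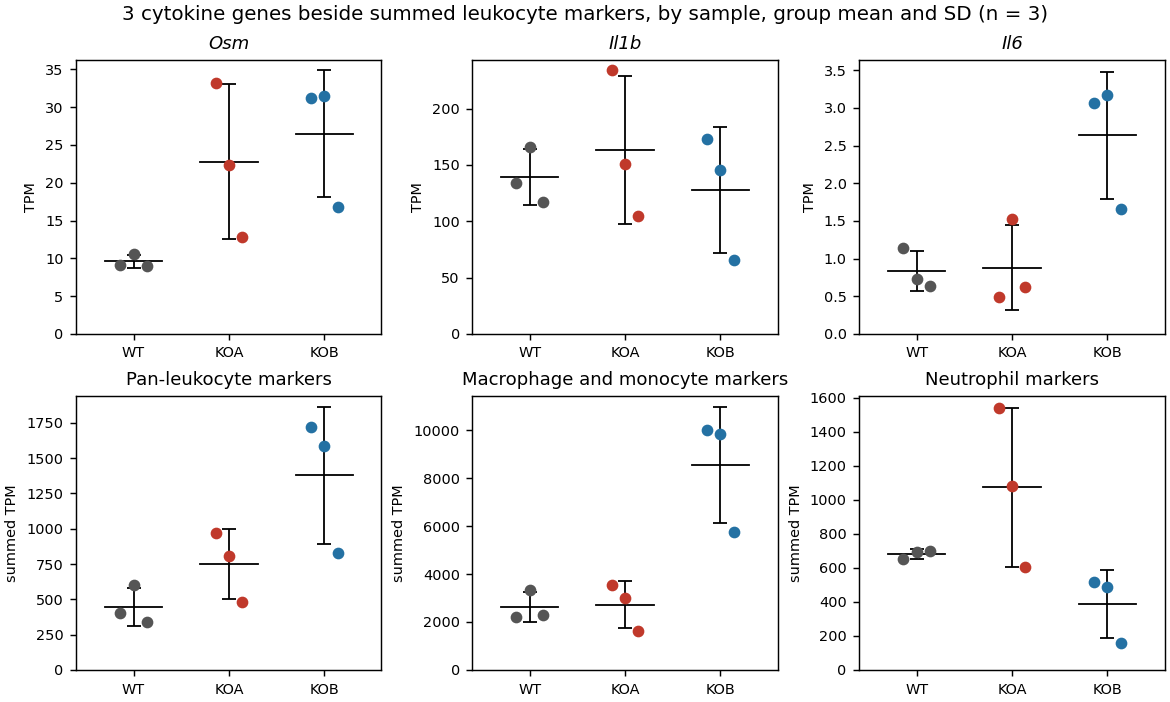
TPM of Osm, Il1b and Il6 (upper panels) and summed TPM of pan-leukocyte, macrophage and neutrophil markers (lower panels) in WT, Usp22-KOA (KOA) and Usp22-KOB (KOB), all axes linear and starting at 0. Points are samples, replicates 1 to 3 from left to right, with the group mean and SD (n = 3); replicate 3 is the lowest sample of each knockout for Osm, Il1b and the 3 marker sums.

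Set per 1000 TPM of pan-leukocyte markers, a scale chosen after the values were seen, Osm stood at 22.6, 17.7 and 26.7 (WT samples), 34.3, 27.8 and 26.6 (Usp22-KOA samples) and 18.1, 19.9 and 20.4 (Usp22-KOB samples). On that scale Usp22-KOB lay within the WT range, and Usp22-KOA lay at its top or above it. Il1b stood at 331, 278 and 349 in the WT samples and 242, 187 and 217 in the Usp22-KOA samples. In the Usp22-KOB samples it stood at 100.4, 91.9 and 79.1, and the 3 groups did not overlap. The divisor itself averaged 447 (WT), 752 (Usp22-KOA) and 1378 TPM (Usp22-KOB), so a gene of flat TPM falls on this scale. How many genes separate in this way was not computed, and no change of Il1b is read from it.

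Markers of epithelial cells moved as well, beside Il1a, Il1rn, Il18 and Il33, which epithelial cells are known to make. Of 12 epithelial and pancreatic ductal markers, limma called 1 higher and 10 lower in Usp22-KOA, and 0 higher and 8 lower in Usp22-KOB. For this and the next lists, the shares of all tested genes were 29.4% higher and 26.9% lower in Usp22-KOA. In Usp22-KOB these shares were 18.7% and 18.4%. The summed level of the 12 markers was 8564 to 9103 (WT), 6344 to 7128 (Usp22-KOA) and 7003 to 8581 TPM (Usp22-KOB). Epcam, an adhesion protein of epithelium, was at 379 ± 18.4 TPM in WT and 37.7 ± 15.2 and 31.3 ± 5.31 TPM in the knockouts, whereas Krt8 stood at 2495, 2474 and 2634 TPM. Keratinocyte markers, a sign of skin, summed to 25.6 to 29.8, 10.2 to 13.5 and 17.0 to 18.6 TPM. Ivl alone held 65.6%, 36.6% and 71.2% of these sums, and 5 of the 9 markers were too low to test. Without Ivl, taken out after the values were seen, the sums were 8.60 to 10.9, 4.50 to 9.30 and 4.16 to 5.69 TPM. Trp63, untested and added after its values were seen, went the other way in Usp22-KOA (2.004 to 3.13 TPM, 0.176 to 0.310 in WT). Fibroblast markers summed to 582 to 1043, 253 to 321 and 912 to 1384 TPM, with 1 of 11 higher and 7 lower in Usp22-KOA and 5 higher in Usp22-KOB, and endothelial markers to 35.2 to 49.4, 4.86 to 11.05 and 27.5 to 41.0 TPM, with 8 of 8 tested lower in Usp22-KOA and 1 lower in Usp22-KOB. T and NK cell markers, the last list, summed to 11.3 to 19.6, 49.3 to 114 and 28.0 to 72.4 TPM, with 8 of 11 higher in each knockout. The part of these shifts in the cytokine results was not tested.

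The genes whose levels over the 9 samples were most like each member are given as a description, for the 7 members with a mean of at least 5 TPM. Likeness was the root mean square difference of standardized log2(TPM + 1) profiles, where 0 is an identical profile. Among the genes nearest to Il1a were Rtl8b (0.086) and Igfbp3 (0.13), and Osm was nearest to Msrb1 (0.11), Fabp5 (0.13) and Parvg (0.15). Il18 was nearest to Fam103a1, Jtb and Tmem14a, Il33 to Gata5, Lsm14a and Car13, and Il1rn to Serpina1b, Fuom and Jtb. Il1b was nearest to Siglece (0.30), Hp (0.31) and Dennd1c (0.38), and Lif to Kctd13, Prdm15 and Lrpprc. Jtb stood near both Il1rn and Il18. All points share the same 9 libraries.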

How the data were processed

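RNA-seq gene values of 3 WT, 3 Usp22-KOA and 3 Usp22-KOB samples were used. The authors deposited 1 table in TPM, which scales estimated reads per transcript length to the same total in each library. Salmon, DESeq2 and the build mm10 are named, per the submitters' processing notes, without role, version or annotation. TPM keeps no depth, so no counting interval is given. Each column matched 1 sample by its label, and 0 columns were left over.

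From the deposited TPM, log2(TPM + 1) was fitted with limma (lmFit, contrasts.fit, eBayes with a trend) on all 9 samples with 1 mean per group, for the 13843 genes that averaged 1 TPM or more; 10650 genes, Il11 among them, were set aside. P-values were adjusted by Benjamini-Hochberg over all tested genes. Il11 and 4 ratios within a sample had exact two-sided permutation tests over samples. The ratios had 1 TPM added to each side, both in the test and in the values shown. An exact permutation test of 3 against 3 cannot go below p = 0.1, so ratios were tested as 6 knockout against 3 WT samples. Named genes were the 10 members, Usp22, the receptor chains, genes of the pathway lists among the 6 with the smallest adjusted p, the highest or defining markers, and the 3 genes most alike to each member with a mean of at least 5 TPM; Il1r2, Epcam, Ptprc, Bco2 and Gm14023 were added after their values were seen. The members and all gene lists were chosen with earlier results of these data known. Matches of motifs were sought in the 250 bases before each RefSeq start site. Coordinates are from GENCODE M21 (GRCm38).

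Alternatives were other pseudocounts, filters, scalings, limma settings, groupings and left-out samples. On data simulated for both knockouts against WT over 13843 genes, limma found 85 of 100 genes altered by a log2 difference of 1 and 48 of 100 altered by 0.5, with 11 false calls among its 144. No other genes were altered there, whereas 50.0% of genes were called in the data, so these rates may not carry over to the data. The fits ran in limma 3.58.1 under R 4.3.3, and tables and figures were made with pandas 2.3.3, numpy 2.4.6 and matplotlib 3.10.9 in Python 3.11.15. Some genes that the rules for named genes chose are not reported here.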

Additional observations from a re-analysis of the deposited data

Results flagged for a closer look

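The direct comparison of the knockouts, which share no samples, passed the threshold by limma for 5 cytokine genes. The log2 difference of Usp22-KOA from Usp22-KOB was -2.38 for Il1a, -0.28 for Il1rn, -0.96 for Il6, 0.32 for Lif and -0.73 for Tslp. The call for Il1a held in each of the 18 alternatives run for it, whereas it ended in 6 of 18 for Il1rn, 2 of 17 for Il6, 8 of 18 for Lif and 3 of 15 for Tslp, and without replicate 2 of Usp22-KOB Il1a was the 1 member called, with Tslp then under the filter on low values. Over all tested genes, 51.7% differed between the knockouts.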

How the results depend on the processing

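The 4 comparisons were repeated with a pseudocount of 0.1 or 5 TPM, without a filter or with one of 5 TPM, with median-of-ratios scaling, quantile normalization, limma without its trend, only the groups compared, a replicate block, and each sample left out. The members called against WT stayed between 4 and 6 in the leave-outs. Genes called for both knockouts against WT fell from 6920 to 2946 with the 6 knockout samples as 1 group. Members called between the knockouts went from 5 to 3 with the filter of 5 TPM, where Il6 and Tslp are not tested, to 3 with no filter and to 3 with quantile normalization, and ranged from 1 to 5 in the leave-outs; the cause was not tested. Directions of uncalled values turned with quantile normalization for Il6st in both knockouts against WT (-0.021), Tslp in Usp22-KOA against WT (0.31) and Il1rap between the knockouts (0.014), and with a pseudocount of 0.1 for Il6 in Usp22-KOA against WT (-0.043). In leave-outs, the difference between both knockouts and WT crossed 0 for Il1b (-0.18 to 0.18), Lif (-0.13 to 0.064), Il6st (-0.018 to 0.037) and Il18rap (-0.21 to 0.048). That of Usp22-KOA from WT did so for Il1b (-0.13 to 0.44), Il6 (-0.23 to 0.15), Il6st (-0.043 to 0.024) and Il1r2 (-0.41 to 0.21), and that of Usp22-KOB for Il1b (-0.49 to 0.20) and Il6st (-0.025 to 0.084). Between the knockouts it did so for Il1b (-0.039 to 0.67), Osm (-0.56 to 0.094), Il1rap (-0.30 to 0.040), Il6st (-0.094 to 0.015), Crlf2 (-0.39 to 0.18), Socs1 (-0.021 to 0.28) and Socs2 (-0.19 to 0.086). The leave-out ranges of the log2 ratios were -0.84 to -0.51 for Il1rn to the sum of Il1a and Il1b, 3.03 to 3.32 for Il18bp to Il18 and 2.34 to 2.89 for Il1rl1 to Il33, and that of Il11 was -0.61 to -0.23. Correlations of deviations between same-numbered replicates ran from -0.12 to 0.28, and 2 of 9 pairs were over 0.1. A sample correlated best with its own number in 9 of 18 sample and group pairs. Same-numbered pairs with WT gave -0.12 to 0.077. Between the knockouts they gave 0.19, 0.077 and 0.28, while pairs of unlike number gave -0.23 to 0.10. Whether replicate numbers mark a shared step was not tested. With the replicate block, 6702 genes were called for both knockouts, 7588 for Usp22-KOA, 4835 for Usp22-KOB and 6922 between the knockouts, with 5, 5, 5 and 4 members, and Lif between the knockouts was no longer called (adjusted p = 0.074).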
